A study of Mus musculus with 15 samples.

Results

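The genes described here encode carriers that move amino acids, small peptides and neurotransmitters across cell membranes. They are all protein-coding genes whose mouse symbol begins with Slc1a, Slc3a, Slc6a, Slc7a, Slc15a, Slc36a, Slc38a or Slc43a, which gave 69 of the 43629 genes in the count table. By family these were 7 Slc1a, 2 Slc3a, 21 Slc6a, 16 Slc7a, 5 Slc15a, 4 Slc36a, 11 Slc38a and 3 Slc43a genes. One of the Slc7a symbols, Slc7a6os, names a neighbour of Slc7a6 that is not itself a carrier.

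RNA was sequenced from mouse organoids of the proximal small intestine, on a mixed C57B6/129 background, and all groups received EGF and Noggin. WT (5 libraries) was kept with RSPO1 (ENR medium) and comprised lines 1, 2, 5 and 6 with Apc flox/flox alleles and 1 dox-naive culture. Apc (4 libraries) comprised the same 4 numbered lines, as read from the number in the titles, after deletion of both Apc alleles, without RSPO1 (EN medium). P-Rspo3 (4 libraries, named 15d, 4d, M and F) carried the Ptprk-Rspo3 inversion, made by dox-inducible Cas9 (R26-rtTA and c3GIC9), and had been selected as polyclonal cultures in EN medium. In any comparison with WT, genotype and the presence of RSPO1 cannot be told apart, and P-Rspo3 came from other lines than the flox WT libraries. Apc and P-Rspo3 were in the same medium but also came from different lines. The labels do not say that all libraries came from separate animals, so p-values measure only the spread between these libraries. Values in libraries are given in the order 1, 2, 5, 6 and dox-naive for WT, 1, 2, 5 and 6 for Apc, and 15d, 4d, M and F for P-Rspo3.

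Total counts were 28902729 to 35528495 per library. As a check of the labels, Rspo3 counts were 539 to 1079 per library in P-Rspo3 against at most 1 in WT. Apc itself had 4046 to 6810 counts in WT and 9265 to 10953 in Apc, and a count over the whole gene does not isolate its deleted part, so it does not check the Apc label. Epithelial markers were high in every group, with a summed FPKM (fragments mapped to a transcript, scaled for its length and for the depth of the library) of 1060 to 1296 in WT, 1378 to 1698 in Apc and 1021 to 1303 in P-Rspo3 for Epcam, Krt8, Krt18 and Cdh1. Marker lists of fibroblasts (5 genes), immune cells (4), endothelium (3) and neurons and glia (5) summed to at most 2.04 FPKM in any library, and Sox10 and Kdr had no count in any.

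In the small intestine, amino acids cross membranes at opposite faces of the cell: across the brush border from the lumen, and across the basolateral membrane between cell and blood. The brush border carriers are made as cells leave the crypt and become enterocytes. Several Slc7a carriers are light chains that reach the membrane only when bound to a heavy chain, either Slc3a1 (rBAT) or Slc3a2 (CD98hc, 4F2hc). Dividing cells rely more on glutamine and neutral amino acid carriers such as Slc1a5, Slc38a1, Slc38a2 and Slc7a5, and lysosomal carriers return amino acids from digested protein to the cytosol. Other members take up serotonin, dopamine, glycine, glutamate, taurine or creatine.

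The stretches directly upstream of the RefSeq start site (GRCm38.p6, 5′ to 3′) are shown for 3 brush border genes that were low together in Apc and for the lysosomal gene that was high, with the pair of sites in Slc7a11, which is read against its response genes later. Capitals mark matches, on either strand, to a 9-base hepatocyte nuclear factor 4 motif or to the ATF4 with C/EBP motif.
Slc3a1, chr17:85028197-85028346, plus strand: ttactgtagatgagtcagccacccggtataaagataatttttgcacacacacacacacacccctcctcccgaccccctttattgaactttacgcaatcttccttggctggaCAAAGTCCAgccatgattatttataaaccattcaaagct
Slc15a1, chr14:121505255-121505404, minus strand: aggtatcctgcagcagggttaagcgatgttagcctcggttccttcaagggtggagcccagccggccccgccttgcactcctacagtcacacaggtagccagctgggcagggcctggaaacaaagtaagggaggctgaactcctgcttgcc
Slc6a19, chr13:73692637-73692786, minus strand: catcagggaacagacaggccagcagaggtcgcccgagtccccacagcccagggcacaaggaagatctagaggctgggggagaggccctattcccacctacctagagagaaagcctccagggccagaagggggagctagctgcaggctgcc
Slc36a4, chr9:15709588-15709737, plus strand: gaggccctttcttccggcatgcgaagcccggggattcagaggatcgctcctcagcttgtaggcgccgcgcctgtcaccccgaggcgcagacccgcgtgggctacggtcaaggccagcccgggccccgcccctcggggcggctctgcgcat
Slc7a11, chr3:50443653-50443679, minus strand: TGATGCAAacctggagaatTTGCATCA

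The printed 150 bases held 17 CG pairs in Slc36a4 against 4 in Slc15a1, 3 in Slc3a1 and 2 in Slc6a19, and 72% G and C in Slc36a4 against 43.3% in Slc3a1. The Slc6a19 stretch lies inside the gene span of GENCODE M21 (chr13:73679745-73704865), whose outer start is further upstream. Its CG count therefore describes the RefSeq start only. RefSeq windows of 300 bases (250 before the start and 50 after) were matched by symbol for 50 members. In these windows CG pairs did not separate the calls. Slc36a4 held 32, and the brush border genes Slc1a1 and Slc6a20a, which were called lower in Apc, held 32 and 25. The 16 members called lower had 1 to 32, with a median of 11, against a median of 7 over all genes. The HNF4 letters CAAAGTCCA were in 1 of these 50, Slc3a1, and in 0.477% of the 27025 windows of all genes. The ATF4 with C/EBP letters TTGCATCA were in Slc1a4, Slc7a7 and Slc7a11, and in 0.929% of all windows. The TCF/LEF letters CTTTGAT were in the windows of Slc1a2, Slc6a16, Slc38a9 and Slc38a10 and in 3.72% of all, the CDX2 letters TTTATGG in Slc7a15 and in 2.76% of all, and the HNF1 letters GTTAATNAT in no member and 0.836% of all. Of the members with a window, Slc3a1, Slc7a7 and Slc7a15 among the 16 called lower in Apc held one of these motifs, and neither of the 2 called higher did. A match describes these letters and is not evidence of binding.

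The summed FPKM of the members, which lacks Slc7a5, was 840 to 934 in WT, 597 to 724 in Apc and 792 to 951 in P-Rspo3, so that the Apc libraries did not overlap the others. Mean sums of FPKM went from 253 in WT to 8.47 in Apc for brush border uptake. They went from 253 to 378 for uptake in dividing cells, from 20.9 to 27.6 for lysosomal members and from 67.7 to 85.5 for members on no list. The FPKM scale itself was higher in Apc, as given below, so rises in these sums do not give the direction of change. On normalized counts the median log2 fold changes of these lists in Apc against WT were -6.37, 0.26, 0.19 and -0.01, in the same order. In WT the glutamine carrier Slc1a5 had the highest mean, at 98.6 FPKM, followed by the luminal neutral amino acid carrier Slc6a19 at 75.5, the heavy chain Slc3a2 at 68.5 and the heavy chain Slc3a1 at 60.1, and neighbours in that order overlapped between libraries. In Apc the order began with Slc1a5 (137 FPKM), Slc38a2 (92.5) and Slc38a1 (63.5), all carriers of glutamine. Slc6a19 led in P-Rspo3 at 78.8, with overlapping ranges for Slc1a5 (75.3) and Slc3a2 (74.9). A mean of at least 10 FPKM was reached by 22 members in WT, 15 in Apc and 23 in P-Rspo3.

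**Figure D1:**
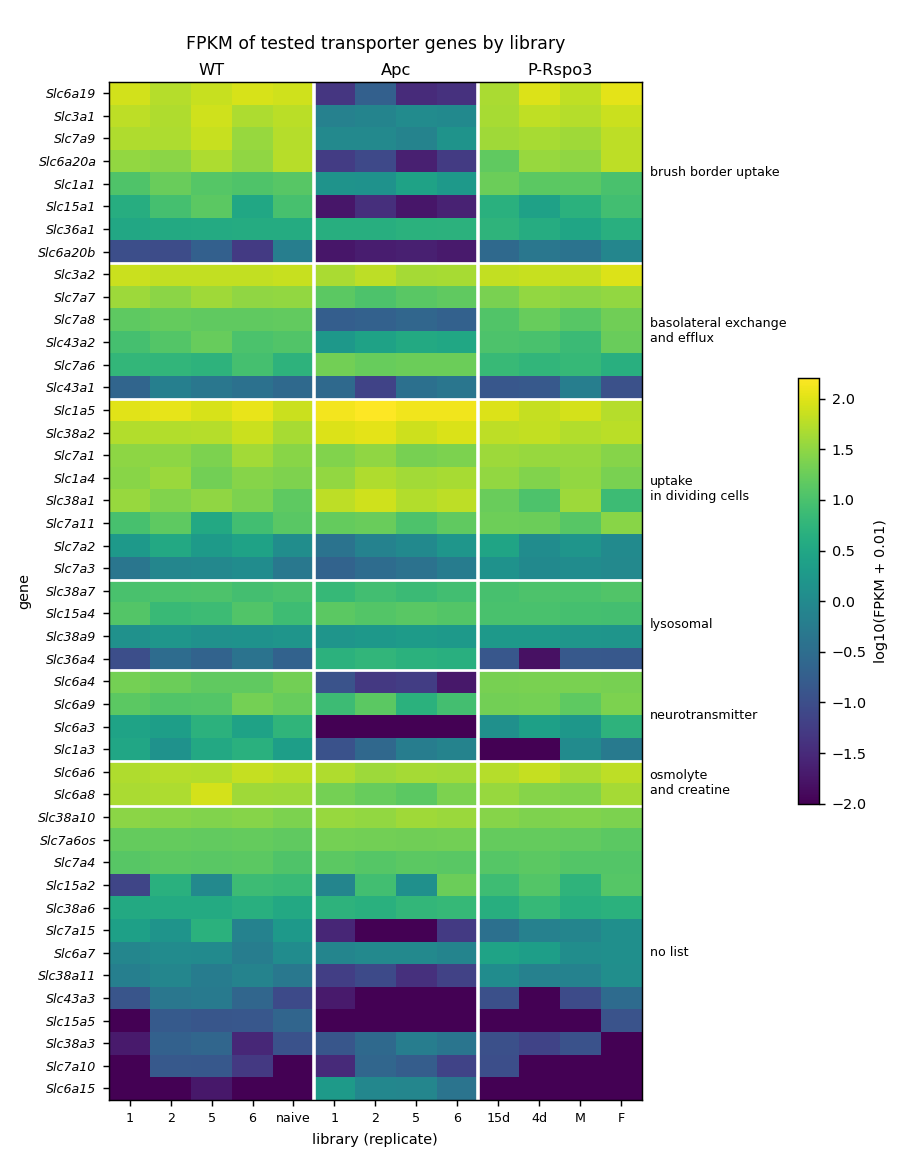
FPKM on a log10(FPKM + 0.01) colour scale for the 45 members tested in at least 1 comparison (rows, grouped by list and ordered by the WT mean) in the 13 libraries (columns). The brush border rows Slc6a19, Slc6a20a, Slc15a1, Slc3a1, Slc7a9 and Slc1a1 are darker in the 4 Apc columns than in the WT and P-Rspo3 columns while Slc36a1 is not, Slc36a4 and Slc6a15 show the opposite, and Slc1a3 is dark in Apc and in P-Rspo3 15d and 4d.

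Apc was first compared with WT, to ask how loss of Apc changed carrier expression in the same lines. A gene was tested if its FPKM was at least 0.1 in at least 4 libraries, and was called at an adjusted p (edgeR quasi-likelihood test, Benjamini-Hochberg over all genes tested) under 0.05 with an absolute log2 fold change above 1. Of the 69 members, 44 were tested and 25 were not. Of the 44, 20 (45.5%) were lower in Apc, where 14.1% of all 16749 genes tested were called lower. The 4 that were higher (9.09%) compare with 12.2% of all genes. These shares over all genes, 14.1% lower and 12.2% higher, also stand beside the list counts given below for Apc against WT. The median log2 fold change was -0.76 over the members tested and 0.00 over all genes tested. Of all calls, 46.4% were higher on the count scale and 59.9% on log2(FPKM + 0.1), where 4 members were higher and 18 lower. Of the 44, 8 passed the filter through 1 group only, with no library of the other group at 0.1 FPKM or above. A difference was thus built into their selection. All 8 were called, Slc6a15 as higher and Slc6a20a, Slc15a1, Slc6a3, Slc7a15, Slc38a11, Slc43a3 and Slc15a5 as lower. Their calls and p-values carry that selection, and so do the shares and list medians that include them. Slc6a19 and Slc6a4 came close to it, with 1 Apc library each above 0.1 FPKM (0.185 and 0.107), and they too passed through WT. Slc7a10 passed on FPKM but had no read count in any library, and is tested in name only.

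**Figure D2:**
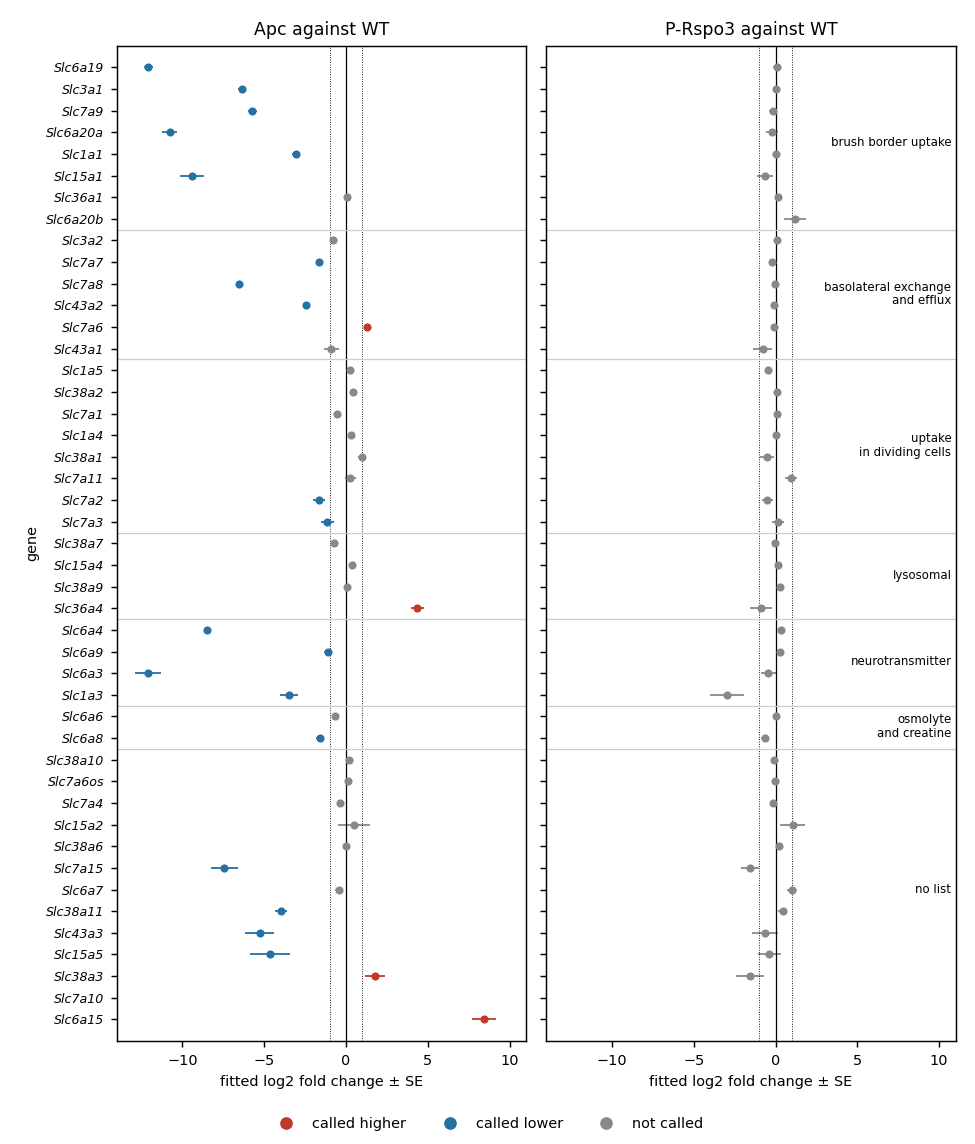
Fitted log2 fold change with its SE (horizontal bars) for tested members in Apc against WT (left) and P-Rspo3 against WT (right), with dotted lines at 1 and -1. On the left 20 members are called lower and 4 higher, and on the right none is called. Slc7a10, without counts, is not drawn, and the fitted value of Slc6a3 depends on the prior count because Apc had no counts.

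Brush border carriers had the lowest median of the 6 lists. Of the 9 on this list, 7 were tested in Apc against WT, 6 were lower and none was higher, with a median log2 fold change of -6.37. Their summed FPKM was 214 to 303 in WT, 7.44 to 9.42 in Apc and 176 to 328 in P-Rspo3. Slc6a19 (B0AT1), the main luminal carrier of neutral amino acids, had FPKM values of 82.8, 54.4, 72.0, 87.4 and 80.8 in WT, 0.0364, 0.185, 0.0235 and 0.0293 in Apc, and 47.0, 95.7, 63.4 and 109 in P-Rspo3. Each Apc library held only 1 to 5 counts of this gene. The log2 fold change in Apc against WT was -12.09 (SE 0.28, edgeR adjusted p = 1.3e-09). Each SE here is the absolute log2 fold change divided by the square root of the F statistic of the test. With so few counts it can be smaller than the counting error. An antisense gene over the same locus, Slc6a19os, went from a mean of 105 counts in WT to 0 in Apc. Reads counted without a stated strand cannot keep it fully apart from Slc6a19.

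Slc6a20a, the proline carrier SIT1, had 33.4, 29.9, 49.3, 31.6 and 55.6 FPKM in WT, 0.0455, 0.0761, 0.0134 and 0.0438 in Apc, and 15.3, 36.5, 32.5 and 60.4 in P-Rspo3. It fell by 10.79 on the log2 scale (SE 0.46, edgeR adjusted p = 2.9e-08), on 0 to 5 counts per Apc library. Among the P-Rspo3 libraries, 15d lay below and F above every WT library. Slc15a1 (PEPT1), which takes up di- and tripeptides with protons, had 4.19, 9.27, 14.2, 3.17 and 9.65 FPKM in WT, 0.00773, 0.0263, 0.00816 and 0.0149 in Apc, and 4.71, 2.54, 4.78 and 8.50 in P-Rspo3. It fell by 9.42 (SE 0.73, edgeR adjusted p = 1.5e-06), on 1 to 3 counts per Apc library, although it varied more between WT lines, 4.47-fold among the 4 flox lines, than Slc6a19 did (1.61-fold).

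The cystine and dibasic amino acid carrier is a pair, the heavy chain Slc3a1 (rBAT) with the light chain Slc7a9, and both chains fell. Slc3a1 had 49.1 to 80.0 FPKM in WT and 0.687 to 1.04 in Apc, with a log2 fold change of -6.37 (SE 0.21, edgeR adjusted p = 7.6e-09). For Slc7a9 the ranges were 36.5 to 71.2 and 0.739 to 1.41, with a log2 fold change of -5.72 (SE 0.27, adjusted p = 5.8e-08). In P-Rspo3 the pair had 45.9 to 74.8 and 39.5 to 60.2 FPKM, overlapping WT for both. Slc1a1 (EAAT3), the glutamate and aspartate carrier, fell less, by 3.07 (SE 0.23, edgeR adjusted p = 1.3e-06), from 11.1 to 17.6 FPKM in WT to 1.39 to 2.66 in Apc. The proton-coupled carrier Slc36a1 (PAT1) was the tested brush border member that was not called, with 3.31 to 3.92 FPKM in WT, 4.29 to 5.07 in Apc and a log2 fold change of 0.05 (SE 0.08). Slc6a20b and Slc6a14 were below the filter. Without it Slc6a14, with 2, 0, 5 and 5 counts in Apc and none in WT, was called higher (edgeR adjusted p = 0.0269), and Slc6a20b lower (-4.16, adjusted p = 8.5e-04). Slc6a20b had 8 to 63 counts in WT and 1 or 2 in Apc, beside about 3594 counts of Sacm1l, which overlaps it on the other strand, so its values are uncertain.

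Genes of proteins that work with these carriers were also lower. Of 10 partners and peptidases, 9 were tested in Apc against WT, 8 (88.9%) were lower, against 14.1% of all genes tested, and none was higher. The surface peptidase Ggt1 had a log2 fold change of -11.43 (SE 0.53) and the endopeptidase Mme of -9.28 (SE 0.32), with edgeR adjusted p-values of 4.7e-08 and 9.0e-09. Mme had 38.7 to 64.5 FPKM in WT and 0.0601 to 0.216 in Apc. Enterocyte markers moved with them: all 6 fell, and their summed FPKM was 2864 to 8113 in WT, 92.7 to 103 in Apc and 1886 to 4518 in P-Rspo3. In bulk RNA fewer enterocytes and less RNA per cell cannot be told apart, and the part of cell composition in these results was not tested.

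Across the basolateral membrane the members moved in different directions. All 6 on the list were tested in Apc against WT, of which 3 were lower, 1 was higher and 2 were not called, with a median log2 fold change of -1.27. Slc7a8 (LAT2), a light chain that exchanges neutral amino acids, had 14.3, 16.1, 15.2, 15.3 and 15.9 FPKM in WT, 0.171, 0.191, 0.236 and 0.195 in Apc, and 11.6, 16.6, 12.9 and 19.4 in P-Rspo3. It fell by 6.55 on the log2 scale (SE 0.11, edgeR adjusted p = 2.3e-10), and its level hardly differed between lines within either group, by 1.12-fold in the WT flox lines and 1.37-fold in Apc.

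Slc7a7, the y+LAT1 light chain that exports dibasic amino acids, had 38.4, 29.2, 39.5, 32.0 and 33.6 FPKM in WT, 13.9, 10.7, 13.2 and 15.1 in Apc, and 22.5, 32.8, 29.6 and 33.8 in P-Rspo3. Its log2 fold change was -1.66 (SE 0.12, edgeR adjusted p = 1.2e-06), and Oxa1l overlaps it on the other strand with 3416 counts on average in WT and 3318 in Apc. Slc7a6, the y+LAT2 light chain of the same exchange, went the other way, with 5.96, 5.84, 5.22, 9.05 and 5.13 FPKM in WT, 20.7, 17.1, 18.2 and 18.3 in Apc, and 6.70, 5.90, 6.53 and 4.40 in P-Rspo3. It rose by a log2 fold change of 1.28 (SE 0.14, adjusted p = 1.9e-05), and every Apc library was above all others. Slc7a7 was thus the more abundant of these related chains per length in every WT and P-Rspo3 library, and Slc7a6 in every Apc library. Slc43a2 (LAT4), a uniporter of branched-chain amino acids, had 9.13, 11.8, 16.6, 10.2 and 11.4 FPKM in WT, 1.75, 2.59, 3.51 and 3.18 in Apc, and 10.9, 10.0, 7.26 and 17.8 in P-Rspo3. It fell by 2.45 (SE 0.16, adjusted p = 5.0e-07).

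Slc3a2 (CD98hc), the heavy chain shared by Slc7a5, Slc7a6, Slc7a7, Slc7a8 and Slc7a11, remained abundant in all groups, with 72.5, 66.7, 66.4, 66.3 and 70.4 FPKM in WT, 46.5, 61.2, 42.9 and 45.5 in Apc, and 66.6, 70.1, 67.7 and 95.3 in P-Rspo3. The Apc values lay below all others. Its log2 fold change of -0.77 (SE 0.11, edgeR adjusted p = 9.5e-05) did not reach the fold threshold. Among its light chains, log2 fold changes in the same fit were -6.55 for Slc7a8, -1.66 for Slc7a7, 0.25 for Slc7a11 and 1.28 for Slc7a6.

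**Figure D3:**
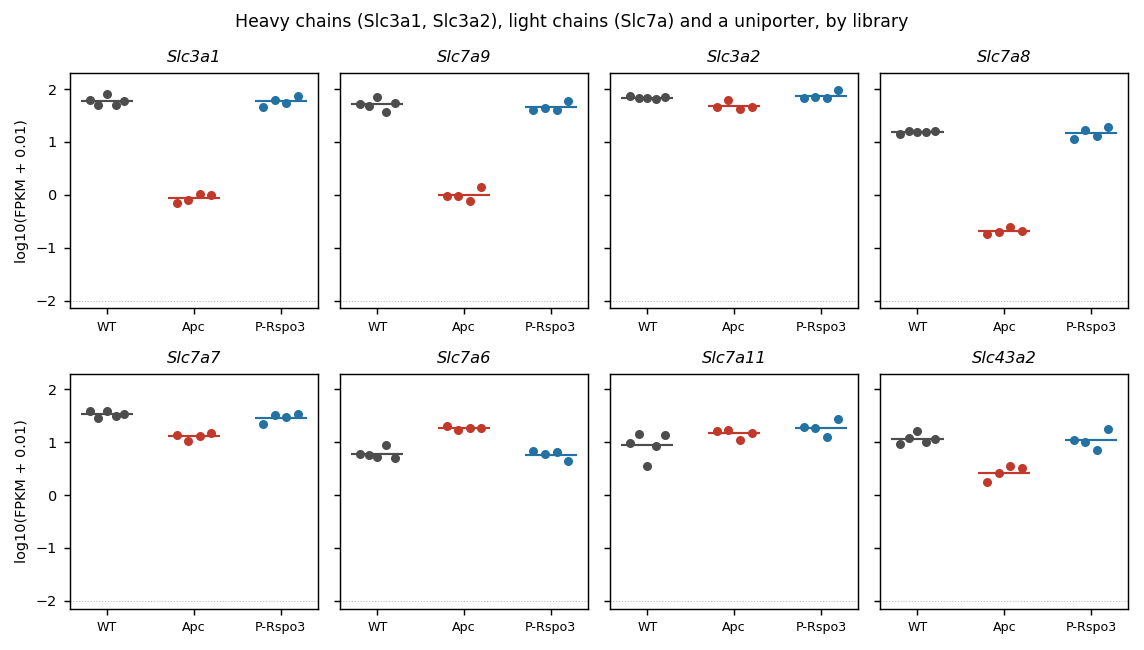
FPKM on a log10(FPKM + 0.01) axis of the heavy chains Slc3a1 and Slc3a2, light chains that pair with them and the uniporter Slc43a2, with 1 point per library and a line at the mean of the logged values. Slc3a1 and Slc7a9 drop together in Apc, whereas among the chains that pair with Slc3a2, itself at 42.9 to 61.2 FPKM in Apc, Slc7a8 and Slc7a7 drop and Slc7a6 is raised to 17.1 to 20.7 FPKM.

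Of 9 carriers typical of dividing cells, 8 were tested in Apc against WT, none was higher, 2 were lower and 6 (75%) were not called, where 73.7% of all genes tested were not called, with a median log2 fold change of 0.26. Slc1a5 (ASCT2), a glutamine exchanger, had 105, 111, 89.7, 114 and 72.9 FPKM in WT, 133, 158, 128 and 130 in Apc, and 94.3, 68.3, 85.1 and 53.6 in P-Rspo3. The FPKM values of Apc lay above all WT values, yet the log2 fold change from normalized counts was 0.26 (SE 0.15, edgeR adjusted p = 0.147). The FPKM scale itself was higher in Apc: the median log2 difference over all genes tested was 0.17 for log2(FPKM + 1) and 0.28 for log2(FPKM + 0.1), against 0.00 for the normalized counts. Values in FPKM are therefore given as levels, and changes are taken from the counts.

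The glutamine carriers Slc38a1 and Slc38a2 lay highest in Apc. Slc38a1 had 14.6 to 35.9 FPKM in WT, 52.2 to 79.8 in Apc and 7.69 to 38.9 in P-Rspo3. Its log2 fold change in Apc against WT was 0.98 (SE 0.23, edgeR adjusted p = 0.00323), just below the fold threshold, and it was called without WT line 1 (1.11), WT line 5 (1.08), Apc line 5 (1.07) or Apc line 6 (1.01). For Slc38a2 it was 0.43 (SE 0.13, adjusted p = 0.0132). Slc7a5 (LAT1), the light chain for large neutral amino acids, has no FPKM in the deposited table and so was tested only without the FPKM filter. Its depth-normalized counts (CPM) were 139, 107, 76.3, 135 and 103 in WT, 190, 283, 178 and 165 in Apc, and 128, 114, 144 and 95.7 in P-Rspo3. All Apc values were higher than the rest, with a log2 fold change of 0.85 (SE 0.18, edgeR adjusted p = 0.00185) against WT, below the fold threshold, and 0.11 (SE 0.16, adjusted p = 0.79) for P-Rspo3 against WT.

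Of the 3 cationic amino acid carriers on this list, Slc7a2 and Slc7a3 were lower. Slc7a2 (CAT2) had 1.90, 3.46, 1.95, 2.67 and 1.16 FPKM in WT, 0.386, 0.721, 0.990 and 1.62 in Apc, and 2.81, 1.09, 1.56 and 1.02 in P-Rspo3. It fell by 1.65 on the log2 scale (SE 0.38, edgeR adjusted p = 0.00345), with Apc line 6 inside the WT range. Slc7a3 (CAT3) had 0.441, 0.830, 0.891, 1.10 and 0.479 FPKM in WT, 0.205, 0.296, 0.377 and 0.567 in Apc, and 1.39, 0.967, 1.08 and 0.953 in P-Rspo3. Its fall of 1.15 (SE 0.41, adjusted p = 0.0308) was lost without WT line 2, 5 or 6 or Apc line 1 or 2, when the adjusted p was 0.0598 to 0.0831. Slc7a1 (CAT1), the most abundant of them at 24.0 to 41.2 FPKM in WT and 22.0 to 32.0 in Apc, had a log2 fold change of -0.56 (SE 0.13, adjusted p = 0.00349), below the threshold.

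Slc7a11 (xCT), the cystine and glutamate exchanger singled out after its values were seen, varied widely, with 9.71, 14.6, 3.47, 8.67 and 13.6 FPKM in WT, 16.5, 17.3, 10.9 and 15.2 in Apc, and 19.1, 18.3, 12.8 and 28.1 in P-Rspo3. Its log2 fold change was 0.25 (SE 0.34, edgeR adjusted p = 0.554) in Apc and 0.93 (SE 0.38, adjusted p = 0.316) in P-Rspo3. Both ATF4 with C/EBP letters in its upstream stretch lie between 66 and 40 bases before the start. ATF4 is the factor that switches on carriers and synthesis enzymes when amino acids are scarce. Of 18 genes of that response, all were tested, with a median log2 fold change of -1.10. In Apc 10 (55.6%) were lower, against 14.1% of all genes tested, and none was higher. Apc line 2 had the highest FPKM of the 4 Apc libraries for 14 of the 18, for example 150 for Atf4 against 90.2 to 101, and without it 12 were lower and the median was -1.25. The pseudokinase Trib3 fell by 3.31 (SE 0.44), the cysteine-making enzyme Cth by 3.03 (SE 0.15) and the factor Atf5 by 2.52 (SE 0.27), with edgeR adjusted p-values of 7.3e-05, 5.8e-08 and 1.4e-05. Atf4 itself had a log2 fold change of -0.93 (SE 0.15, adjusted p = 0.00031), just below the fold threshold. The members with the same letters in their windows had log2 fold changes of 0.33 (Slc1a4, adjusted p = 0.102), 0.25 (Slc7a11) and -1.66 (Slc7a7).

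Of 6 lysosomal members, 4 were tested in Apc against WT, 1 was higher and 3 were not called, with a median log2 fold change of 0.19. Slc36a4 (PAT4), a high-affinity carrier of proline and tryptophan, had 0.0907, 0.293, 0.207, 0.396 and 0.196 FPKM in WT, 5.10, 5.74, 4.91 and 4.53 in Apc, and 0.128, 0.00557, 0.137 and 0.136 in P-Rspo3. In counts this was 6 to 57 in WT, 889 to 1044 in Apc and 1 to 26 in P-Rspo3. It rose 20.6-fold, a log2 fold change of 4.36 (SE 0.40, edgeR adjusted p = 5.3e-06), and the 4 Apc libraries were close together, 1.27-fold apart at most. Slc38a7 (SNAT7), which exports glutamine from lysosomes, had the highest WT mean on the list, with 9.95, 10.4, 10.8, 9.02 and 9.77 FPKM in WT, 6.59, 8.49, 7.24 and 8.63 in Apc, and 9.47, 10.6, 10.5 and 11.6 in P-Rspo3. Its log2 fold change of -0.75 (SE 0.10, adjusted p = 9.6e-05) was below the fold threshold. The arginine sensor Slc38a9 had 1.32 to 1.58 FPKM in WT and 1.53 to 2.04 in Apc and a log2 fold change of 0.03 (SE 0.11). The histidine and peptide carrier Slc15a4 had 7.01 to 11.9 and 12.0 to 14.2 FPKM and a log2 fold change of 0.35 (SE 0.10), and it exceeded Slc38a7 in every Apc library and in WT lines 1 and 6.

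**Figure D4:**
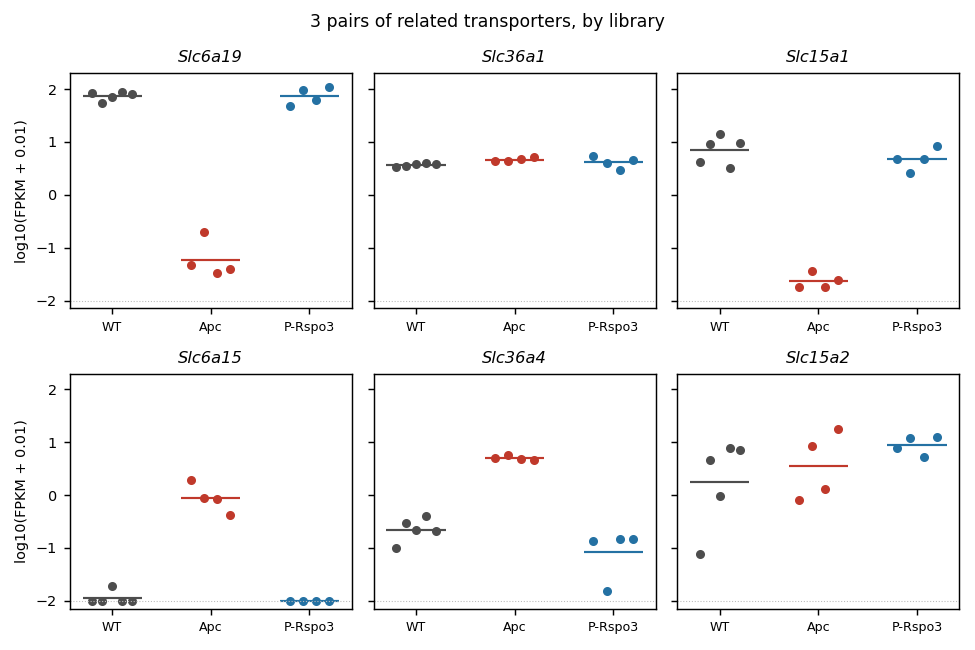
FPKM on a log10(FPKM + 0.01) axis of 3 pairs of related carriers, with 1 point per library and a line at the mean of the logged values; the dotted line marks an FPKM of 0. In Apc, Slc6a19 and Slc15a1 are near the dotted line, Slc6a15 and Slc36a4 are above every WT and P-Rspo3 library, and Slc36a1 stays between 4.29 and 5.07 FPKM.

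Of 12 neurotransmitter carriers, 8 were below the filter and 4 were tested in Apc against WT, all 4 of them lower, with a median log2 fold change of -5.98. Without the filter Slc6a13, a GABA carrier with 1, 1, 3 and 10 counts in Apc and 1 in all of WT, was called higher (edgeR adjusted p = 0.0263). Slc6a4 (SERT), which takes up serotonin, had 20.8, 17.9, 15.3, 15.3 and 20 FPKM in WT, 0.107, 0.0406, 0.0489 and 0.00884 in Apc, and 21.9, 22.5, 22.4 and 22.1 in P-Rspo3. It fell by 8.50 on the log2 scale (SE 0.21, edgeR adjusted p = 1.5e-09), to 3 to 8 counts per library. The grouped P-Rspo3 libraries were all above those of WT, with a log2 fold change of 0.32 (SE 0.10). This small difference was not called (edgeR unadjusted p = 0.0102, adjusted p = 0.216). The 2 libraries left unassigned, whose title and genotype field disagree, went the other way. LIPO (genotype field WT) had 22.5 FPKM and NAIVE_F (genotype field P-Rspo3) 16.9.

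Slc6a3 (DAT), known as the dopamine carrier of neurons, had 2.71, 2.25, 4.96, 2.64 and 5.55 FPKM in WT and 1.28, 2.4, 1.69 and 5.28 in P-Rspo3, and was listed at 0 in all 4 Apc libraries. WT held 279 to 720 counts and Apc none. Set against a floor of 3 counts per Apc library, Slc6a3 was at least 211-fold lower in Apc than in WT (edgeR adjusted p = 5.7e-06) and at least 156-fold lower than in P-Rspo3 (adjusted p = 0.00019). Slc6a9 (GLYT1), a glycine carrier, fell by 1.08 (SE 0.24, adjusted p = 0.00248), from 11.5 to 21.4 FPKM in WT to 4.87 to 14.2 in Apc. This call was lost without WT line 6, Apc line 1 or Apc line 5, with log2 fold changes of -0.99, -1.0 and -0.91, and B4galt2, which overlaps it on the other strand, had 14.8 counts on average in WT and 200 in Apc.

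Slc1a3 (GLAST), a glutamate carrier, was low in the grouped libraries of both mutants. It had 3.09, 1.36, 3.46, 4.66 and 2.29 FPKM in WT, 0.106, 0.257, 0.588 and 0.754 in Apc, and 0, 0, 1.05 and 0.510 in P-Rspo3. No Apc or P-Rspo3 library in these groups reached the lowest WT value. The 2 unassigned libraries went the other way, with 0.558 FPKM in LIPO (genotype field WT) and 1.97 in NAIVE_F (genotype field P-Rspo3). The log2 fold change in Apc was -3.46 (SE 0.55, edgeR adjusted p = 0.00027). In P-Rspo3 it was -2.95 (SE 1.04), which was not called (unadjusted p = 0.0171, adjusted p = 0.25). Of these libraries, 15d and 4d had no count, M had 151 and F had 58.

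Enzymes that make or break down these substrates were followed beside them. Of 16 amine, GABA, taurine and creatine enzymes and vesicle carriers, 15 were tested in Apc against WT, with a median log2 fold change of -0.80. Of those tested, 7 (46.7%) were lower and 2 (13.3%) higher, against 14.1% and 12.2% of all genes tested. The amine oxidases fell, Maob by 7.52 (SE 0.51, edgeR adjusted p = 5.8e-07) and Maoa by 4.72 (SE 0.17, adjusted p = 1.3e-08), as did Abat, which degrades GABA, by 5.39 (SE 0.23, adjusted p = 2.9e-08). The increases were Gatm, the first enzyme of creatine synthesis, at 3.21 (SE 0.59, adjusted p = 0.00077), and Cdo1, which oxidizes cysteine on the way to taurine, at 1.78 (SE 0.27, adjusted p = 0.00022). Tph1, which makes serotonin in enteroendocrine cells, fell by 4.16 (SE 0.26, adjusted p = 3.7e-07). Of 5 enteroendocrine markers, which include Tph1, 3 were lower in Apc, with a summed FPKM of 67.6 to 97.5 in WT and 7.74 to 19.1 in Apc, and their part in the change of the amine genes was not tested.

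Of 3 osmolyte and creatine carriers, 2 were tested in Apc against WT and 1 was lower, with a median log2 fold change of -1.14. Slc6a8, the creatine carrier, had 46.5, 47.7, 85.0, 40.0 and 38.2 FPKM in WT, 21, 16.7, 14.1 and 23.4 in Apc, and 35.8, 27.5, 25.2 and 43.3 in P-Rspo3. It fell by 1.59 on the log2 scale (SE 0.23, edgeR adjusted p = 0.00012), and all Apc values lay below those of the other groups. Slc6a6 (TauT), the taurine carrier, was the highest of the list in WT, with 50.7, 54.4, 52.0, 69.2 and 58.4 FPKM, against 49.8, 38.2, 44.0 and 41.1 in Apc and 53.5, 68.2, 47.5 and 61.8 in P-Rspo3. Its log2 fold change of -0.68 (SE 0.10, adjusted p = 0.00019) did not reach the fold threshold.

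The remaining 24 members were on no list, and those named here were chosen after their values were seen. Of the 24, 13 were tested in Apc against WT, with a median log2 fold change of -0.01. Of those tested, 4 (30.8%) were lower and 2 (15.4%) higher, against 14.1% and 12.2% of all genes tested. Slc6a15 (B0AT2), a branched-chain amino acid and proline carrier best known from brain, had 273, 108, 121 and 60 counts in Apc, 0, 0, 1, 0 and 0 in WT and none in P-Rspo3. In FPKM the Apc libraries had 1.95, 0.890, 0.838 and 0.412. With 1 count in the whole WT group the ratio of summed counts was 535 (95% exact interval 95.6 to 21167, counting error only), and against the floor of 3 counts per library it was at least 36.1-fold higher in Apc than in P-Rspo3 (edgeR adjusted p = 3.9e-06 and 0.00033). Slc6a15 lies at chr10:103367783-103419377 on GRCm38, away from its intestinal relative Slc6a19 at chr13:73679745-73704865.

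Slc38a3 (SNAT3), a glutamine carrier, was the other increase. It had 1 to 12 counts in WT and 13 to 36 in Apc, with a log2 fold change of 1.75 (SE 0.60, edgeR adjusted p = 0.0264), which was lost without WT line 6, the dox-naive library, Apc line 5 or Apc line 6 (adjusted p = 0.0551 to 0.0808). Slc38a4 was below the filter, with no count in any WT or P-Rspo3 library and 0, 8, 35 and 78 counts in the Apc lines. Among the decreases, Slc38a11 went from 0.477 to 0.835 FPKM in WT to 0.0277 to 0.0781 in Apc, a log2 fold change of -3.99 (SE 0.37, adjusted p = 4.9e-06). Slc7a15 had 0.732 to 4.77 FPKM in WT and 3 counts in all of Apc, giving a ratio of summed counts of 197 (95% exact interval 67.0 to 957). The weakly expressed Slc43a3 and Slc15a5 were also lower, but Slc43a3 fell below the filter without WT line 1, 2, 5 or 6, and Slc15a5 without WT line 2, 5 or 6 or the dox-naive library, and neither was called on log2(FPKM + 1).

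Slc15a2 (PEPT2), the high-affinity peptide carrier, followed the line more than the group. Its FPKM values were 0.0667, 4.68, 0.955, 7.70 and 7.04 in WT, 0.798, 8.55, 1.29 and 17.9 in Apc, and 7.85, 11.8, 5.34 and 12.4 in P-Rspo3. The 4 flox lines had the same order in both states, line 1 lowest, then 5, 2 and 6. In FPKM they spanned 115-fold in WT and 22.4-fold in Apc. The Apc FPKM was above that of WT in each line, by 12.0-fold in line 1 and 1.83-fold in line 2. In line 5 the ratio was 1.35 and in line 6 it was 2.32. The FPKM scale was itself higher in Apc. Lines 1 and 5 had 10 and 62 raw counts in WT and 67 and 85 in Apc. A rise in line 5 is therefore not shown. Without the line as a term the log2 fold change was 0.50 (SE 0.99, edgeR adjusted p = 0.704), and it became -0.58 without Apc line 6. With line number as a block and without the dox-naive library it was 0.79 (SE 0.33, adjusted p = 0.0826), which was not called either. Its relative Slc15a1 did not keep this order.

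**Figure D5:**
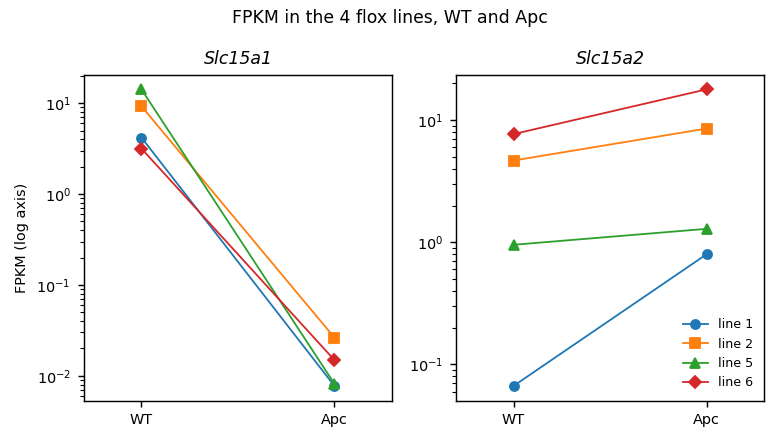
FPKM (log axis) of the peptide carriers Slc15a1 and Slc15a2 in the 4 flox lines, with a line joining the WT and Apc libraries of the same line. Slc15a1 falls in all 4, whereas Slc15a2 keeps the order 1, 5, 2, 6 and spans 115-fold in WT.

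Several members lie next to each other in the genome (GRCm38), and neighbours did not all move alike. On chromosome 13, Slc6a3, Slc6a18 and Slc6a19 follow each other with gaps of 83.1 and 1.72 kb. Slc6a3 and Slc6a19 fell in Apc, and Slc6a18 was below the filter. On chromosome 9, Slc6a20b lies 2.21 kb from Slc6a20a. The chromosome 11 cluster of Slc36a3, Slc36a2 and Slc36a1 held 1 gene above the filter, Slc36a1, at 2.94 to 5.41 FPKM over all libraries. On chromosome 15, Slc38a1 lies 44.5 kb from Slc38a2, and Slc38a4 is 295 kb further. Slc7a7 and Slc7a8 on chromosome 14 are 304 kb apart and both fell, whereas Slc7a6 on chromosome 8 rose and Slc7a6os, 2.01 kb away, had a log2 fold change of 0.09 (SE 0.06, edgeR adjusted p = 0.205).

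P-Rspo3 was then compared with WT, to ask whether the inversion changed carrier expression in RSPO1-independent cultures. Of 43 members tested, none was called higher and none lower (edgeR), where 0.00625% (1 gene) and 0% of all 15992 genes were called. The unadjusted p was under 0.05 for 8 members (18.6%), against 13.5% of all genes tested, and DESeq2 also called none, with 7 under that level. The median log2 fold change was -0.03 over the members tested and 0.00 over all genes. For description, those 8 were Slc1a3 (-2.95), Slc7a15 (-1.56), Slc6a8 (-0.65), Slc1a5 (-0.43), Slc38a9 (0.25), Slc6a4 (0.32), Slc7a11 (0.93) and Slc6a7 (0.99), as log2 fold changes with adjusted p-values of 0.205 to 0.316.

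By list, median log2 fold changes in P-Rspo3 against WT were 0.01 for 8 brush border members, -0.10 for 6 basolateral, 0.07 for 8 of dividing cells, 0.05 for 4 lysosomal, -0.08 for 4 neurotransmitter, -0.32 for 2 osmolyte and creatine members and -0.07 for 11 on no list. Among brush border members, log2 fold changes were 0.08 (SE 0.24) for Slc6a19, 0.02 (SE 0.18) for Slc3a1 and 0.01 (SE 0.18) for Slc1a1. They were -0.15 (SE 0.24) for Slc7a9 and -0.19 (SE 0.37) for Slc6a20a. The basolateral Slc7a8 was at -0.03 (SE 0.16). Members measured less precisely included Slc15a1 (-0.65, SE 0.47), Slc6a20b (1.19, SE 0.66) and Slc15a2 (1.05, SE 0.75). Others were Slc36a4 (-0.91, SE 0.68), Slc38a3 (-1.56, SE 0.87) and Slc1a3 (-2.95, SE 1.04). Differences of that size could not be told from the spread between libraries. Against the flox WT libraries alone, Slc6a20b was at 2.15 (SE 0.49, edgeR adjusted p = 0.0553). None of the enzymes, partners, ATF4 response genes or cell type markers on the lists was called in this comparison.

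Apc and P-Rspo3 were both in EN medium, so their comparison holds the medium constant. They came from different lines, and in this comparison genotype and line of origin, with its transgenes, cannot be told apart. It shares its libraries with the comparisons above and gives no independent count. Of 42 members tested, 18 (42.9%) were lower in Apc, against 13.3% of all 16456 genes, and 5 (11.9%) were higher, against 13.4%. Of all calls, 50.3% were higher on the count scale and 61.3% on log2(FPKM + 0.1), where 5 members were higher and 16 lower. Of the 42, 7 passed the filter through 1 group only, with no library of the other group at 0.1 FPKM or above. All 7 were called, so their calls and p-values carry that selection. These were Slc6a15, which was higher, and Slc6a20a, Slc6a20b, Slc15a1, Slc6a3, Slc7a15 and Slc38a11, which were lower. The median log2 fold change was -0.68 for members tested and 0.00 for all genes. The 5 higher in Apc were Slc6a15, Slc36a4 (5.29, SE 0.48), Slc38a3 (3.33, SE 0.62), Slc38a1 (1.52, SE 0.43) and Slc7a6 (1.39, SE 0.11), with edgeR adjusted p-values of 9.0e-06 to 0.0142.

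Brush border members were again the lowest, with 7 of 8 tested called lower in Apc than in P-Rspo3 and a median log2 fold change of -5.96. The values were -12.16 (SE 0.48) for Slc6a19, -10.59 (SE 0.72) for Slc6a20a, -8.76 (SE 0.56) for Slc15a1, -6.37 (SE 0.23) for Slc3a1 and -5.55 (SE 0.23) for Slc7a9. Slc1a3, low in the libraries of both groups, had a log2 fold change of -0.50 (SE 1.24, edgeR adjusted p = 0.767) and was not called. That value turned to 0.84 without P-Rspo3 M and to 0.65 on log2(FPKM + 0.1). Slc6a7, a proline carrier with 0.777 to 0.940 FPKM in Apc and 1.14 to 2.70 in P-Rspo3, was lower in Apc by 1.40 (SE 0.29, adjusted p = 0.00245). Slc7a2 was called at -1.12 (SE 0.42, adjusted p = 0.0438), a call lost without Apc line 1, 2 or 5 or P-Rspo3 15d or M. Slc6a8 missed the fold threshold at -0.93 (SE 0.17, adjusted p = 0.00146) and passed it without Apc line 6, P-Rspo3 4d or P-Rspo3 M.

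Other lists fixed for the epithelium are given for the same libraries. In Apc against WT the goblet markers (3 of 3) were lower, the Paneth markers Lyz1 and Ang4 were lower and Mmp7 was higher, and the stem markers Lgr5, Ascl2 and Axin2 were higher while Olfm4 was lower. Krt18 was the epithelial marker called higher. Of the non-epithelial markers tested, Itgam and Pecam1 were lower and Pdgfra and Cdh5 higher, with means of at most 1.53 FPKM. The part of these cell types in the members' changes was not tested.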

How the data were processed

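PolyA RNA of 15 organoid libraries was sequenced, of which 13 were analysed in groups and 2 were left unassigned because title and genotype field disagreed. Alignment by the authors used STAR in 2 passes and the GRCm38 genome. The deposited raw read counts per gene came from HTSeq 0.6.0 and the deposited FPKM values, normalized by the authors for length and depth, from Cufflinks 2.2.1. The annotation release and the strand setting are not given in the sources used here. Libraries held 28902729 to 35528495 counts.

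A gene was kept where its FPKM reached 0.1 in at least 4 libraries (the size of the smaller group), and its counts were tested with edgeR 4.0.16 (TMM, quasi-likelihood, R 4.3.3), with Benjamini-Hochberg adjustment over all genes tested. A call required a log2 fold change beyond 1 in either direction together with an adjusted p below 0.05. Each SE given is the absolute log2 fold change divided by the square root of the quasi-likelihood F statistic. It is not a separate estimate, and for genes with few counts in a group it can be smaller than the counting error. The scripts were tested on simulated data. DESeq2 1.42.0, and limma 3.58.1 on log2(FPKM + 1) and log2(FPKM + 0.1), served as alternatives. Gene positions and types came from GENCODE M21 and promoter sequences from RefSeq (GRCm38.p6). A fold against a group with no counts used a floor of 3 counts per library, and ratios against 1 to 3 counts carry exact 95% intervals. Both cover counting error only.

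The members and gene lists were chosen with earlier results of these data known. Values in every library are given, per list, for up to 3 called members in each direction with the largest absolute log2 fold change in Apc against WT and for the member with the highest WT FPKM, and up to 3 genes in each direction are named from lists of genes that are no members. Some listed genes are not reported here by name. Members given in full outside this rule, among them Slc6a15, Slc7a5, Slc7a11, Slc15a2, Slc38a3 and Slc38a4, were chosen after their values were seen. Slc7a5 has no FPKM in the deposited table.

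Same-numbered WT and Apc libraries were taken to come from the same flox line because their titles share the number. The genotype field does not state it. Their deviations from the group means correlated with a median r of 0.113 (-0.0286 to 0.21 over 4 pairs), against -0.0118 over the 16 other pairs. Between libraries of 1 group the smallest chi-square per gene was 22.3, so none was a repeat of another.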

Additional observations from a re-analysis of the deposited data

Results flagged for a closer look

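In 7 of the 70 group and gene sets examined, the gap between 1 library and the nearest of its group exceeded the 95% critical value of Dixon's ratio of gap to range, a level at which about 1 in 20 groups would pass by chance if values were normally distributed. Slc6a19 had 0.185 FPKM in Apc line 2, against 0.0235 to 0.0364 in the other Apc libraries, but its count there was 1, against 1, 3 and 5 in lines 1, 5 and 6. Slc1a5 was also highest in Apc line 2, at 158 FPKM against 128 to 133. Slc7a6 had 9.05 FPKM in WT line 6, against 5.13 to 5.96, and Slc6a8 had 85.0 in WT line 5, against 38.2 to 47.7. Slc3a2 had 95.3 FPKM in P-Rspo3 F, against 66.6 to 70.1. Slc36a4 had 0.00557 FPKM in P-Rspo3 4d, which is 1 count, against 0.128 to 0.137. Slc6a15 had 0.0089 FPKM in WT line 5, also 1 count, where the other WT libraries had none.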

How the results depend on the processing

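Counts of members called lower stayed within 1.5 times the main counts under every alternative run. The count of members higher in Apc than in WT, 4 in the report, was 10 with no FPKM filter, 2 at an FPKM of at least 1 and 8 by adjusted p alone. For Apc against P-Rspo3, 5 in the report, it was 9, 3 and 8, and 3 with limma on log2(FPKM + 1). Leaving out 1 library at a time gave 3 to 5 higher and 16 to 21 lower members for Apc against WT, 5 higher and 17 to 19 lower for Apc against P-Rspo3, and 0 for P-Rspo3 against WT. With line number as a replicate block (4 flox lines, no dox-naive library) 4 members were higher and 19 lower, since Slc15a5 was no longer tested, and the block changed no other call. Slc38a3 was not called with the flox WT libraries alone (adjusted p = 0.0551). No called value changed sign. In P-Rspo3 against WT no member was called under any alternative, while calls over all genes went from 1 higher and 0 lower to 166 and 100 with the flox WT libraries alone and to 55 and 173 with DESeq2. The causes of these shifts were not tested. Genes with few counts in a group (among them Slc6a19, Slc6a20a, Slc15a1, Slc6a15, Slc7a15, Slc38a3 and Slc38a11) have folds limited by counting: on log2(FPKM + 0.1), Slc15a1 was at -5.96, Slc6a20a at -8.08 and Slc38a11 at -2.29. The FPKM give no depth of their own.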

Other observations

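The 2 libraries whose title and genotype field disagree were compared with the ranges of the groups over the 45 members tested. The library titled LIPO lay within the WT range for 29 members, the P-Rspo3 range for 31 and the Apc range for 5. The library titled NAIVE_F lay within the WT range for 34, the P-Rspo3 range for 26 and the Apc range for 3. The WT range spans 5 libraries and the others 4, and these counts do not identify a library. Rspo3 was 0 FPKM in LIPO and 8.54 in NAIVE_F, against at most 0.0112 in WT and 6.26 to 11.5 in P-Rspo3. By Rspo3 both libraries thus followed the genotype field, which is WT for LIPO and P-Rspo3 for NAIVE_F. Slc15a2, which differed by line, had 0.0436 and 0 FPKM in them.

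In FPKM the order of the 4 flox lines was the same in WT and Apc for Slc7a3, Slc7a11, Slc38a11 and Slc15a2 among the 24 members examined. Orders on the count scale can differ. A shared order of 4 lines can arise by chance, and its share over all genes was not counted. For Slc38a11 the order in Apc rests on 2, 3, 1 and 2 counts in lines 1, 2, 5 and 6, too few to rank them. Slc7a11 FPKM rose from line 5 to 6, 1 and 2 in both states, spanning 4.2-fold in WT and 1.59-fold in Apc. Its raw counts in Apc were 5149 in line 1 and 4404 in line 2, so that these lines were not in this order.

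Promoter windows of 300 bases had a median of 57.7% G and C over 50 members and 52.7% over 27025 genes. By call in Apc against WT the medians were 58.5% for 16 members called lower, 64% for 15 not called and 54% for 17 not tested, and the 2 called higher had 69% and 75.7%.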
